A study of Bos taurus with 25 samples.

Results

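Expression of 6 genes of cholesterol synthesis and its control was followed in biopsies of liver and mammary gland from dairy cows that had been given vitamins B9 and B12. The genes were listed by name, 8 in all, and a probe was taken where the transcript name that the array gives for it is paired with one of those symbols. SQLE, IDI1, FDFT1, LSS, DHCR7 and INSIG1 were found this way, with 10 of the 43653 probes and 6 of the 11068 different gene symbols on the array. HMGCS1 and SREBF2 were paired with 0 probes and were not analysed here. The 8 genes hold enzymes of synthesis and regulators, and no receptor for cholesterol uptake.

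The animals were multiparous Holstein cows, intact and without genetic modification, biopsied 64 ± 3 days after calving. Each cow had a weekly intramuscular injection of 5 mL: saline (Ctl), 320 mg of folic acid as pteroylmonoglutamic acid (B9), 10 mg of vitamin B12 as cyanocobalamin (B12), or both vitamins (B9_B12). Each array held the RNA of 1 biopsy of 1 cow, and arrays of a group are separate cows. The liver arrays came from 3 Ctl, 3 B9, 4 B12 and 2 B9_B12 cows, and the mammary arrays from 3, 3, 4 and 3 cows. The 25 arrays came from 13 cows, of which 12 gave both tissues. Cows had been placed in blocks by milk production in the lactation before, and the block of a cow was not used here. A biopsy is a piece of whole tissue, so a lower level may mean fewer cells of a type or less RNA per cell, and these cannot be told apart.

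Cholesterol is built from acetyl-CoA through mevalonate and isoprene units, which are joined into squalene, closed into a sterol ring and trimmed to cholesterol. When sterols run low in the endoplasmic reticulum, the transcription factor SREBP2, encoded by SREBF2, is released and switches on nearly every enzyme of this route. INSIG1 is a target of the same factor and a brake on it, since it holds the SREBP escort protein SCAP back in the membrane when sterols are plentiful. The liver makes cholesterol for lipoproteins and bile acids, whereas the lactating mammary gland secretes it in the membrane of the milk fat globule.

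The labelled tissues bore their own markers. All 10 hepatocyte markers were well above background on every liver array and were called higher in liver, and all 8 paired markers of mammary epithelium were well above background on every mammary array and called higher there. Signal over background, the median spot signal over the median background around it, ran from 2.30 to 10.5 in liver and from 2.92 to 5.06 in mammary gland. A pair of liver arrays stood apart from the rest: the B9 array of cow 57 and the B9_B12 array of cow 32 each had a median correlation of 0.971 with the other liver arrays, against 0.988 to 0.991 for the other 10. Cow 57 also had the lowest levels of most of the genes described here, so the main liver results are also given without 1 or both of these arrays. All 10 probes of the 6 genes were well above background on all 25 arrays, 0 were saturated and 0 of their spots were left out as outliers. Values are log2 intensities from the authors' processed table unless said otherwise. Each gene is represented by its brightest probe in the tissue. Because the table was normalised separately for each tissue, its levels are not compared across tissues, and the number of arrays limits the precision.

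In liver the 6 genes differed widely between cows, and mostly in the same cows. SQLE encodes squalene epoxidase, which makes the first oxygenation step toward sterols. Its log2 intensity in liver was 14.52, 15.07 and 15.13 in the Ctl cows 42, 51 and 43. In the B9 cows 57, 39 and 41 it was 11.84, 14.28 and 15.54. In the B12 cows 36, 40, 37 and 52 it was 12.73, 14.34, 14.64 and 15.19, and in the B9_B12 cows 32 and 38 it was 14.23 and 14.52. The lowest and the highest liver value of SQLE were thus both from B9 cows, and they lay 12.97-fold apart.

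DHCR7 encodes the reductase that turns 7-dehydrocholesterol into cholesterol at the end of the route. Its liver values were 13.90, 14.64 and 14.81 in the Ctl cows 42, 51 and 43, 12.14, 13.56 and 15.31 in the B9 cows 57, 39 and 41, and 14.09 and 14.24 in the B9_B12 cows 32 and 38. In the B12 cows 36, 40, 37 and 52 they were 12.78, 13.89, 14.19 and 14.86. DHCR7 therefore had the same lowest and highest cow as SQLE, with a range of 8.99-fold. IDI1 encodes the isomerase that readies isoprene units for joining. Its liver values were 13.56, 13.64 and 14.03 in the Ctl cows 42, 43 and 51, 11.09, 13.08 and 13.54 in the B9 cows 57, 39 and 41, 12.26, 13.26, 13.28 and 14.10 in the B12 cows 36, 37, 40 and 52, and 12.11 and 13.57 in the B9_B12 cows 32 and 38. IDI1 was again lowest in cow 57, and its range was 8.09-fold.

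FDFT1 encodes squalene synthase, the first enzyme committed to sterols. Its liver values ran from 12.79 in cow 57 (B9) over a median of 14.11 to 15.31 in cow 43 (Ctl), a range of 5.76-fold. LSS encodes lanosterol synthase, which closes the sterol ring. Its liver values were 8.10, 8.33 and 8.54 in the Ctl cows 43, 42 and 51, 6.92, 8.07 and 9.02 in the B9 cows 57, 39 and 41, 7.16, 8.03, 8.05 and 8.17 in the B12 cows 36, 37, 40 and 52, and 7.62 and 7.84 in the B9_B12 cows 38 and 32. The low values of LSS were those of cows 57 and 36, and its range was 4.28-fold. INSIG1 ran from 11.48 in cow 36 (B12) over a median of 13.37 to 13.97 in cow 43 (Ctl), a range of 5.61-fold, and was the only one of the 6 genes whose lowest liver value was not that of cow 57.

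**Figure D1:**
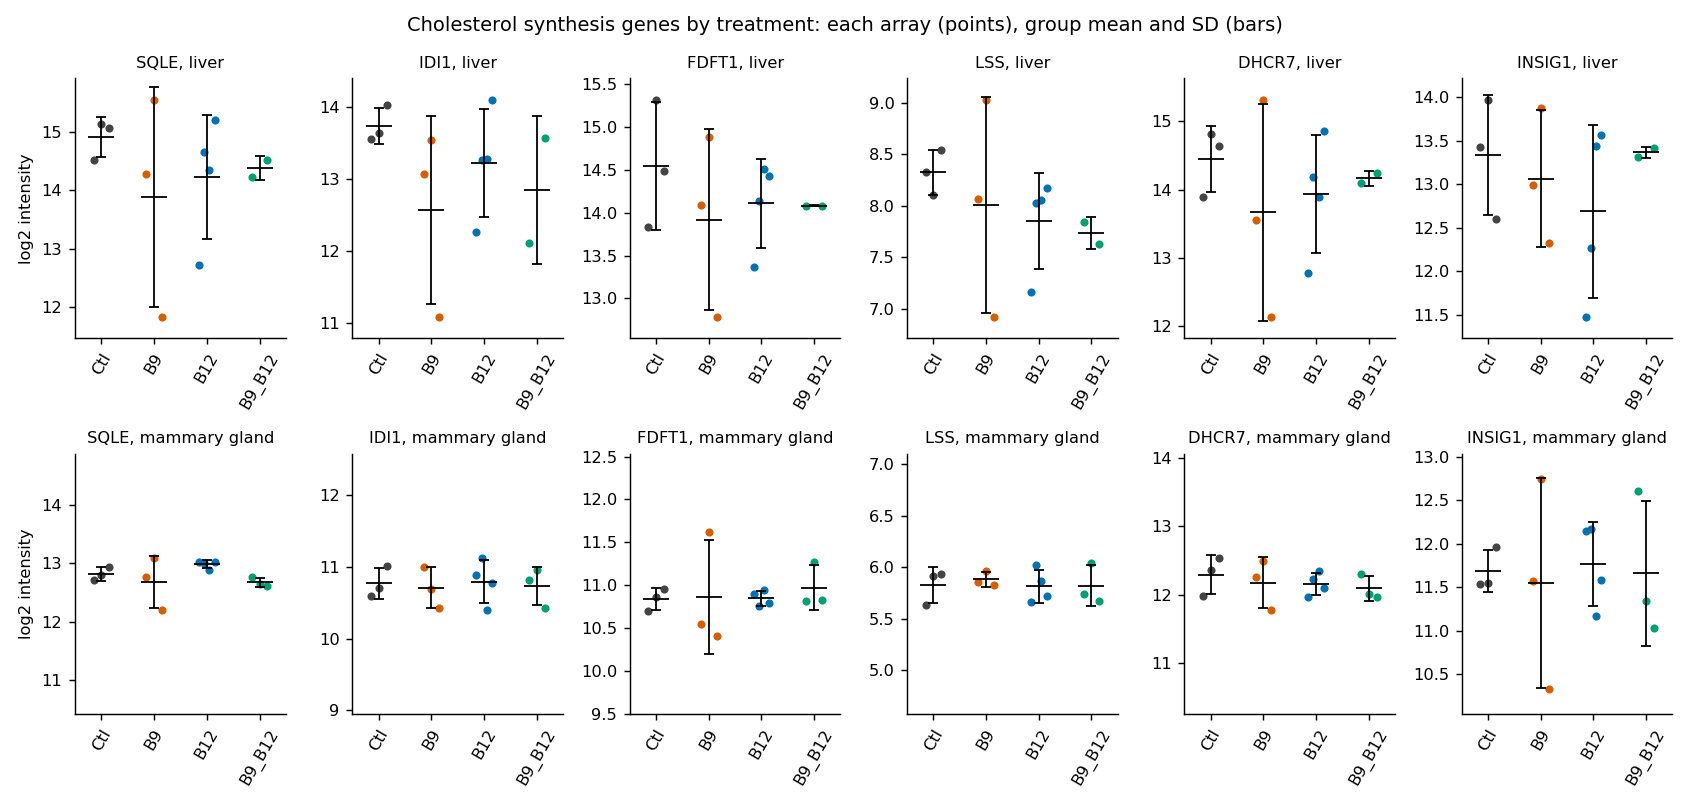
Log2 intensity of the 6 genes (columns) in liver (upper row) and mammary gland (lower row) by treatment group. Points are single arrays, the bar is the group mean with its SD, and the axes of a column span the same number of log2 units in both rows; the low B9 point of SQLE in liver is cow 57 at 11.84, and the mammary points of SQLE lie between 12.20 and 13.09.

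Averaged over the 6 genes, cow 57 lay 1.60 log2 units below the mean of the liver arrays (a mean deviation of -1.60) and cow 36 had a mean deviation of -1.16, with 6 of 6 genes below the mean in both. At the other end stood cow 41 with a mean deviation of 0.91, cow 43 with 0.71 and cow 52 with 0.60, each with 0 of 6 genes below the mean. Cows 57 and 41 both had B9, and cows 36 and 52 both had B12, so that each of these treatments held cows from both ends. The summed level of the hepatocyte markers on the log2 scale was 21.45 on the liver array of cow 57, the lowest of the 12, against 21.53 to 21.62 on the other 11 and 21.62 on that of cow 36. On the array of cow 57 the summed markers of adipocytes (10.6), of lymphocytes and plasma cells (12.2) and of red cells (14.4) were the highest of the 12 liver arrays, and their part in the low values was not tested. The array of cow 36 had none of these sums at an extreme (9.50, 11.2 and 13.8), a median correlation of 0.988 with the other liver arrays and a signal over background of 8.27. On the array of cow 32 (B9_B12) the summed markers of macrophages (15.1) and endothelium (11.9) were the highest of the 12. Its signal over background (2.30) was the lowest, and the part of these in its values was not tested.

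**Figure D2:**
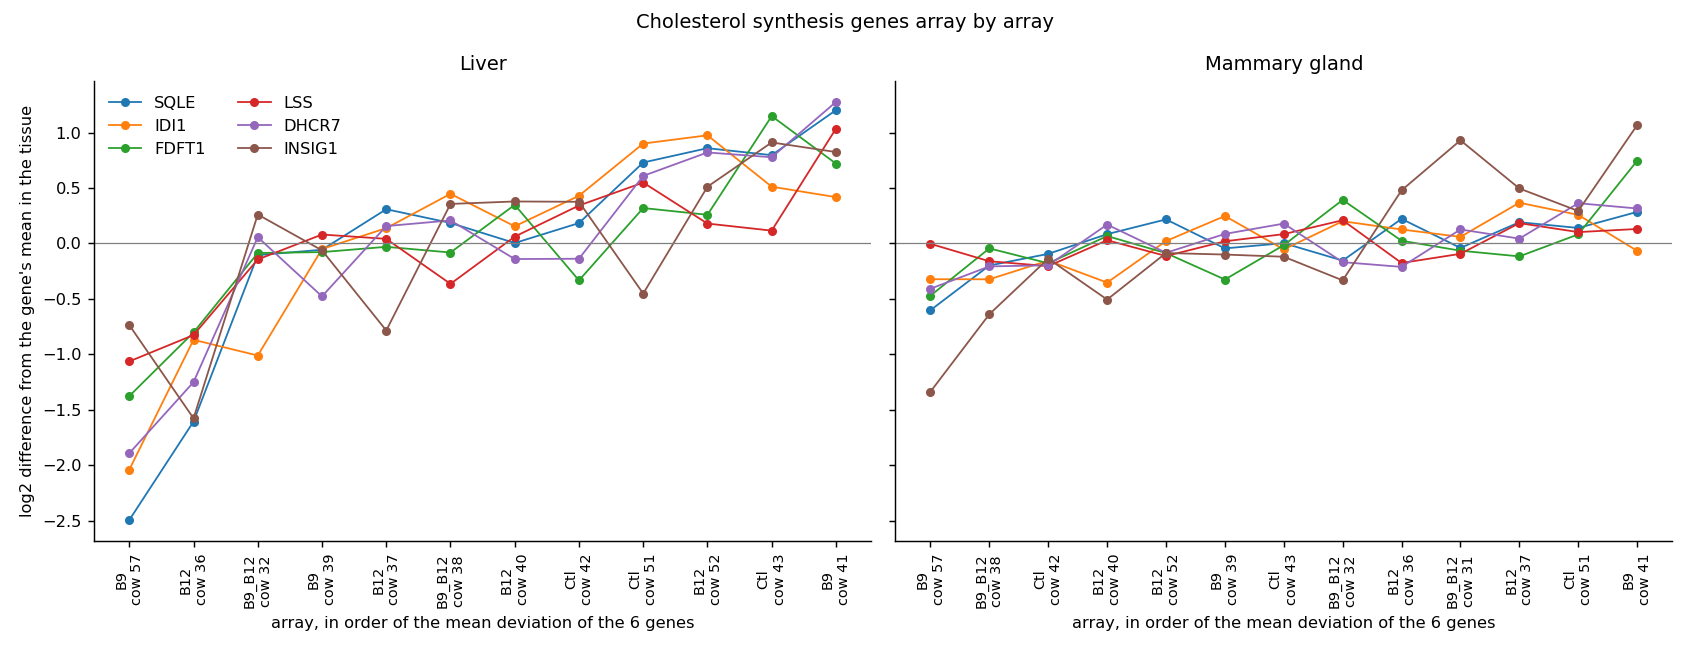
Difference of each gene from its mean in the tissue (log2, vertical axis) for every array, with arrays ordered by the mean difference of the 6 genes and 1 coloured line per gene. In liver (left) the lines run together from cow 57 (mean -1.60) and cow 36 (mean -1.16) up to cow 41 (mean 0.91), whereas in mammary gland (right) the means run from -0.52 to 0.41.

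In mammary gland the same genes varied less. SQLE lay between 12.20 and 13.09, IDI1 between 10.40 and 11.12, FDFT1 between 10.41 and 11.62, LSS between 5.63 and 6.04 and DHCR7 between 11.77 and 12.54. INSIG1 was the exception, with 10.33 to 12.74, a range of 5.29-fold. Cow 57 was again the lowest in 4 of the 6 genes, with a mean deviation of -0.52 and 6 of 6 genes below the mean, and cow 41 was again the highest on average, with 0.41. The mammary array of cow 57 had the lowest median correlation with the other mammary arrays (0.985, against 0.986 to 0.990) and the highest signal over background (5.06, against 2.92 to 4.34). Its summed epithelial markers were the highest of the 13 (21.28, against 21.19 to 21.25) and its summed red cell markers the lowest (10.8, against 11.6 to 14.6), and the part of these in its low values was not tested.

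The spread within treatment groups can be set against that of other probes. Among the 25553 probes well above background on all arrays, the pooled SD within groups was a median of 1.36 times larger in liver than in mammary gland. The ratio was 5.14 for SQLE, 3.87 for DHCR7, 3.86 for LSS, 3.25 for IDI1, 2.09 for FDFT1 and 1.07 for INSIG1. SQLE exceeded 99.4% of those probes in this ratio, DHCR7 97.9%, LSS 97.8%, IDI1 95.5% and FDFT1 80.5%, while INSIG1 exceeded 31.2%. Without the pair of liver arrays that stood apart the median ratio of all probes was 0.977, and the genes had ratios of 3.80 for SQLE, 3.31 for DHCR7, 2.83 for LSS, 2.08 for IDI1, 1.77 for FDFT1 and 1.13 for INSIG1. LSS lay below the median of all mammary spots, 6.13, where the offset added by the background correction draws values together. The liver SD itself was 1.16 for SQLE, 0.99 for DHCR7, 0.89 for IDI1, 0.80 for INSIG1, 0.72 for FDFT1 and 0.61 for LSS, against a median of 0.29 for those probes.

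None of the 6 genes was called different from control under any treatment in either tissue. A call needed an adjusted p of at most 0.05, from limma with Benjamini-Hochberg adjustment over all probes, and a change of at least 2-fold. The background was as low: in liver 0% of all probes were called for B9, 0.00229% for B12 and 0% for B9_B12, and in mammary gland 0% for each treatment. At an unadjusted p below 0.05, again 0 of 6 genes passed in each of the 6 comparisons, against 3.42%, 1.99% and 5.98% of all probes in liver and 2.61%, 2.25% and 1.97% in mammary gland. Cyber-T, the test of the study's methods, also called 0 of 6 genes in each comparison, beside 0.0115%, 0.11% and 0.0458% of all probes in liver and 0.0252%, 0.0275% and 0.0206% in mammary gland. The 3 treatments of a tissue share its control cows, so their differences are not independent of one another. The exact permutation test of a single gene cannot go below p = 0.1 with 3 against 3 or 2 against 3 cows, or below p = 0.0286 with 4 against 3.

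In liver the group means still lay on one side in most genes. The genes varied together over the cows, so counts of genes on one side are not of independent observations. After B9 the 6 genes lay below control by log2 differences of -1.17 (IDI1), -1.02 (SQLE), -0.78 (DHCR7), -0.62 (FDFT1), -0.32 (LSS) and -0.27 (INSIG1), with a median of -0.70, where 46.8% of all probes were lower and the median of all probes was 0.02. The other INSIG1 probe went the other way after B9, with 0.33, and had -0.38 after B12 and -0.03 after B9_B12. Without cow 57 this median was -0.01, with 3 of 6 genes lower, and without cow 41 it was -1.35. The B12 differences ran from -0.68 (SQLE) to -0.43 (FDFT1), with a median of -0.52 and 6 of 6 genes lower, against 49.5% of all probes. Without cow 36 that median was -0.19, still with 6 of 6 lower. After B9_B12, 5 of 6 genes were lower, from -0.90 (IDI1) to 0.03 (INSIG1), with a median of -0.50, against 46.7% of all probes. Without cow 32, the other array that stood apart, this median was -0.30.

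The 95% intervals of the liver differences were wide. They extended 0.90 to 2.01 log2 units to either side and reached down to -2.82 and up to 1.48, and each of them included both no change and a level more than 2-fold below control. Within scan day 1 the liver median was -0.51 for B9 (3 against 2 cows), -0.50 for B12 (3 against 2) and -0.15 for B9_B12 (1 against 2). On scan day 2, which held 1 array each of Ctl, B12 and B9_B12, it was -0.55 for B12 and -0.81 for B9_B12.

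In 2 cases all treated liver arrays lay below all control arrays on the brightest probe of a gene. After B9_B12 this also held for the other IDI1 probe (-0.72) and for 1 of the other FDFT1 probes (-0.82), but not for the brightest probes of these genes. IDI1 after B9 was one: the treated cows had 11.09, 13.08 and 13.54 and the controls 13.56, 13.64 and 14.03, a mean of 12.57 ± 1.31 (SD, n = 3) against 13.74 ± 0.25 (SD, n = 3). The groups did not overlap, but the highest B9 cow lay just under the lowest control. The difference was -1.17 (SE 0.628, 95% interval -2.56 to 0.21), or 2.25-fold lower, with an adjusted p of 0.891 in limma and an exact two-sided permutation p of 0.1, the smallest possible. Without cow 57 it was -0.43. The other IDI1 probe differed by -1.002, and on it the groups overlapped, with 2 of 3 B9 arrays below all controls (a highest B9 value of 11.81 against a lowest control of 11.68). Within scan day 1 the difference was -1.22, and on the only slide that held both groups, with 1 array of each, it was -2.47. Among all probes 4.16% had all B9 arrays below all controls; for B12, where 0 of 6 genes did, it was 2.51%.

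LSS after B9_B12 was the other case, with 7.62 and 7.84 in the treated cows and 8.10, 8.33 and 8.54 in the controls, a mean of 7.73 ± 0.16 (SD, n = 2) against 8.32 ± 0.22 (SD, n = 3). The difference was -0.59 (SE 0.488, 95% interval -1.66 to 0.48), with an adjusted p of 0.688 in limma and an exact two-sided permutation p of 0.1, again the smallest possible. Such a separation was frequent in this comparison, where 9.99% of all probes had both treated arrays below all controls. Within scan day 1 the LSS difference was -0.81, with 1 treated array, and within scan day 2 it was -0.26, with 1 array of each group. The values on slides 4 and 8 were -0.71 and -0.26, with 1 array of each group on both.

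**Figure D3:**
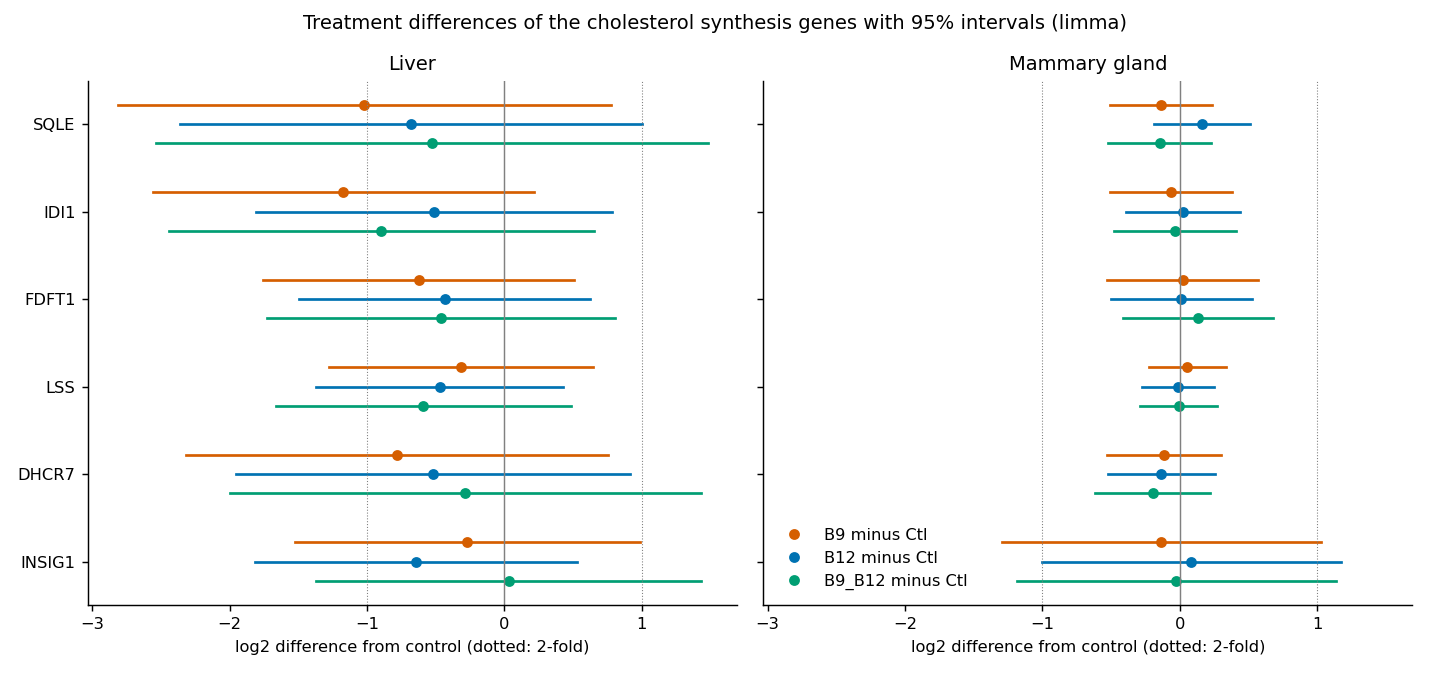
Log2 difference of each treatment from control for the 6 genes in liver (left) and mammary gland (right); points are the limma estimates, lines their 95% intervals, and dotted lines mark 2-fold. The liver points lie between -1.17 and 0.03 and the mammary points between -0.20 and 0.16, and 36 of 36 intervals include 0.

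In mammary gland the treatment differences were smaller and had no common side. They ran from -0.14 (SQLE) to 0.05 (LSS) after B9, from -0.14 (DHCR7) to 0.16 (SQLE) after B12 and from -0.20 (DHCR7) to 0.13 (FDFT1) after B9_B12, with medians of -0.09, 0.02 and -0.03. Each median turned its sign when single arrays were left out, with ranges of -0.31 to 0.09, -0.07 to 0.11 and -0.14 to 0.09. Of the 6 genes 4, 2 and 5 were lower than control, where 49.4%, 49.5% and 50.4% of all probes were. In 0 of 6 genes did all treated mammary arrays lie below all controls, as they did in 3.18%, 1.66% and 3.45% of all probes. The 95% intervals extended 0.26 to 1.16 to either side, the widest being those of INSIG1, so that for the other 5 genes a 2-fold change in either direction lay outside the interval in each of the 3 comparisons. SQLE after B12, for example, had 12.89, 12.99, 13.02 and 13.02 against 12.71, 12.81 and 12.94 in Ctl, with overlapping groups, a difference of 0.16 (95% interval -0.19 to 0.51) and an exact permutation p of 0.0857.

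The 2 by 2 layout also allows each vitamin to be read over all cows of a tissue. Any B9 against none gave log2 differences from -0.78 (IDI1) to 0.20 (INSIG1) in liver and from -0.22 (SQLE) to 0.07 (FDFT1) in mammary gland. Any B12 against none gave -0.37 (LSS) to -0.01 (DHCR7) in liver and -0.11 (DHCR7) to 0.10 (INSIG1) in mammary gland. The direction of both liver medians turned when single cows were left out, and that of any B12 also turned when slides were fitted as a block. The any-B9 median was -0.30 over all arrays, 0.06 without cow 57, 0.07 without the pair of arrays that stood apart and -0.81 when slides were fitted as a fixed block. The any-B12 median was -0.13 over all arrays, 0.04 without cow 36, 0.11 without cow 41, -0.46 without cow 57, -0.39 without the pair and 0.48 when slides were so fitted. With slides fitted, cow 57 was the only cow given B9 alone whose array shared a slide with other liver arrays. None of these contrasts was called in limma over all arrays, and none of the 6 genes then had an unadjusted p below 0.05; of all probes 0% were called, and 10.1% (liver, B9), 2.95% (liver, B12), 3.48% (mammary gland, B9) and 1.65% (mammary gland, B12) had such a p. The interaction of the vitamins passed in 0 of 6 genes of either tissue and in 0% of all probes; at an unadjusted p below 0.05 it passed in 0 of 6 genes, beside 3.86% of all probes in liver and 3.22% in mammary gland. Whether a treatment difference differed between the tissues was tested in a fit of all 25 arrays: 0 of 6 genes passed for any treatment, with a lowest adjusted p of 0.835 in limma (LSS after B9_B12), and 0% of all probes passed. At an unadjusted p below 0.05 this difference also passed in 0 of 6 genes, beside 2.36% (B9), 1.82% (B12) and 4.25% (B9_B12) of all probes.

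Across cows the 6 genes moved together in liver. Of the 15 pairs of genes, 13 had a Pearson correlation over the 12 liver arrays with an adjusted p of at most 0.05, from permutation tests adjusted over the 30 pairs of both tissues, and 6 passed by Spearman's rho. The Pearson r ran from 0.523 (IDI1 and INSIG1) to 0.973 (SQLE and DHCR7), with a median of 0.772. With the 2 arrays farthest from the median of the first gene left out, r ran from 0.344 to 0.952, with a median of 0.670. Taken as deviations from the group means, the median r was 0.811, and within scan day 1, with 9 arrays, it was 0.885; scan day 2 held 3 arrays, too few for a value. Without the pair of arrays that stood apart 9 pairs passed, with a median r of 0.759. The correlations are over arrays that were normalised together. The share of passing pairs among other genes was not determined in either tissue, so the counts of pairs have no background beside them.

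The tightest pair was SQLE and DHCR7, with r = 0.973 and rho = 0.951 over 12 arrays (permutation, adjusted p = 0.0003 and 0.0012). Without cows 57 and 36 its r was 0.952, and within scan day 1 it was 0.974. INSIG1 was the loosest member. Its r with IDI1 was 0.523 (permutation, adjusted p = 0.114), and that with SQLE, 0.699 (permutation, adjusted p = 0.0292; rho 0.643, adjusted p = 0.0651), was 0.344 without cows 57 and 36, the 2 farthest from the median of SQLE, but 0.759 without the pair of arrays that stood apart (cows 57 and 32) and 0.731 over deviations from the group means. The relation thus rested on cows 57 and 36 as a pair, and leaving out cow 57 with cow 32 did not lower it.

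In mammary gland the correlations were looser. There 3 of the 15 pairs passed, all among SQLE, DHCR7 and INSIG1, and 1 passed by Spearman's rho. SQLE and INSIG1 had r = 0.772 and rho = 0.775 (permutation, adjusted p = 0.0072 and 0.0223), SQLE and DHCR7 r = 0.636 and rho = 0.467 (permutation, adjusted p = 0.0323 and 0.159), and DHCR7 and INSIG1 r = 0.619 and rho = 0.484 (permutation, adjusted p = 0.0434 and 0.144). Leaving out the 2 farthest arrays lowered these r to 0.465, 0.282 and 0.451, so the 3 relations rested on cow 57 with cow 41 or, for the last pair, cow 51. The count of passing pairs was 0 without cow 57, 1 without cow 38 and 6 without cow 32. Over all 15 pairs r ran from 0.110 to 0.772, with a median of 0.470. All mammary arrays were of 1 scan day.

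A cow's level in one tissue was next set against its level in the other, over the 12 cows with both. DHCR7 had r = 0.702 and rho = 0.608 (permutation, p = 0.00973 and 0.0404, adjusted over the 6 genes 0.0584 and 0.231), and SQLE r = 0.624 and rho = 0.531 (permutation, p = 0.0390 and 0.0794, adjusted 0.117 and 0.231). Neither passed after adjustment. Without the 2 cows farthest from the liver median, 57 and 36 for both genes, r was 0.446 for DHCR7 and 0.713 for SQLE. Without the cows of the pair of liver arrays that stood apart, 57 and 32, it was 0.565 for DHCR7 and 0.07 for SQLE, so that the SQLE value swung with whether cow 36 or cow 32 was left out beside cow 57. FDFT1 had r = 0.536, LSS 0.337, IDI1 0.131 and INSIG1 -0.02, with adjusted p of 0.149 or more in the permutation tests. Without the 2 cows farthest from the liver median of each gene these were 0.508, 0.308, -0.14 (cows 57 and 32) and 0.507 (cows 36 and 37), so that IDI1 and INSIG1 turned their sign. As a background, the median r of 25496 probes between the tissues was -0.01, and 97.5% of them lay below DHCR7, 95.4% below SQLE, 91.9% below FDFT1, 79.6% below LSS, 62.4% below IDI1 and 48.4% below INSIG1. Among the 9 cows with both arrays of scan day 1, r was 0.701 for DHCR7 and 0.649 for SQLE.

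Named genes with a probe well above background on all arrays of a tissue were then ranked by their r with the mean of the standardised values of the 6 genes, as a description over 12 liver or 13 mammary arrays; each rank holds among the genes kept for the ranking. In liver, among 8929 genes outside the 6, the most alike was TRH, thyrotropin-releasing hormone, with r = 0.981, followed by AOX1, aldehyde oxidase, with 0.966. ACSS2, the cytosolic enzyme that makes acetyl-CoA from acetate, came next with 0.963. The cholesterol enzymes FDPS, CYP51A1, MVK and TM7SF2 held ranks 4, 5, 7 and 8, with r from 0.921 to 0.948; FDPS makes farnesyl diphosphate, the substrate of FDFT1. The first 10 also held SCD, the desaturase that makes oleic acid, with 0.926, DLG3, a scaffold protein, with 0.919, and HSD17B12, an enzyme of fatty acid elongation, with 0.916. TRH ranged from 10.89 to 16.35 in liver and SCD from 9.73 to 15.77, ranges wider than those of the 6 genes themselves. Without the pair of arrays that stood apart 7 of these 10 genes were still among the first 10, with r of 0.971 for TRH, 0.952 for AOX1 and 0.939 for ACSS2, and MVK, DLG3 and TM7SF2 held ranks 11, 13 and 14. Without cows 57 and 36, the lowest of the liver, 5 were still among the first 10, and the lowest r of the 10 was 0.691.

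In mammary gland the 10 most alike of 8465 genes were PCYT2, ACSS2, TRH, CD320, ARFIP2, SLC25A35, HIGD1B, DRAP1, RAB29 and SERP1, with r from 0.789 to 0.898. ACSS2 (0.897) and TRH (0.887) were thus among the first 10 in both tissues. PCYT2 encodes the enzyme that readies ethanolamine for phosphatidylethanolamine, and CD320 the receptor that takes up vitamin B12 bound to transcobalamin. CD320 had r = 0.874. Without cow 57 the genes still among the first 10 were ACSS2, PCYT2, TRH, CD320 and ARFIP2, and CD320 had r = 0.796. The loose correlation among the 6 genes themselves in this tissue limits what such a rank describes.

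Ranked against the mean of the other 5, SQLE held rank 2 of 8930 genes in liver, DHCR7 rank 4, FDFT1 rank 14, LSS rank 24, IDI1 rank 35 and INSIG1 rank 309. The other genes of the pathway were read from 3 lists. Of 13 other synthesis enzymes, 10 were among the first 100 in liver, with r from 0.639 to 0.948 and a median of 0.878. The lowest were PMVK and GGPS1, with 0.639 and 0.648. Without the pair of arrays that stood apart 12 of the 13 were among the first 100, with a median of 0.867 and the lowest, GGPS1, at 0.209. Without cows 57 and 36 there were 8, with a median of 0.720. Of 9 genes of uptake and control 0 were among the first 100, with a median r of 0.003, and of the 9 genes of storage, efflux and bile acids 0 were, with a median r of -0.03. In mammary gland 7 of the 13 enzymes were among the first 100, with a median r of 0.639, from HSD17B7 with 0.722 and TM7SF2 with 0.710 down to MVK with 0.349, EBP with 0.335, ACAT2 with 0.307 and GGPS1 with -0.22. Without cow 57, 1 of the 13 was among the first 100, with a median r of 0.410. SCARB1, the receptor for HDL, held rank 24 there with 0.743, against 0.609 in liver. Cow 57 had the lowest liver value in 12 of the 13 enzymes and the lowest mammary value in 9 of 13.

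**Figure D4:**
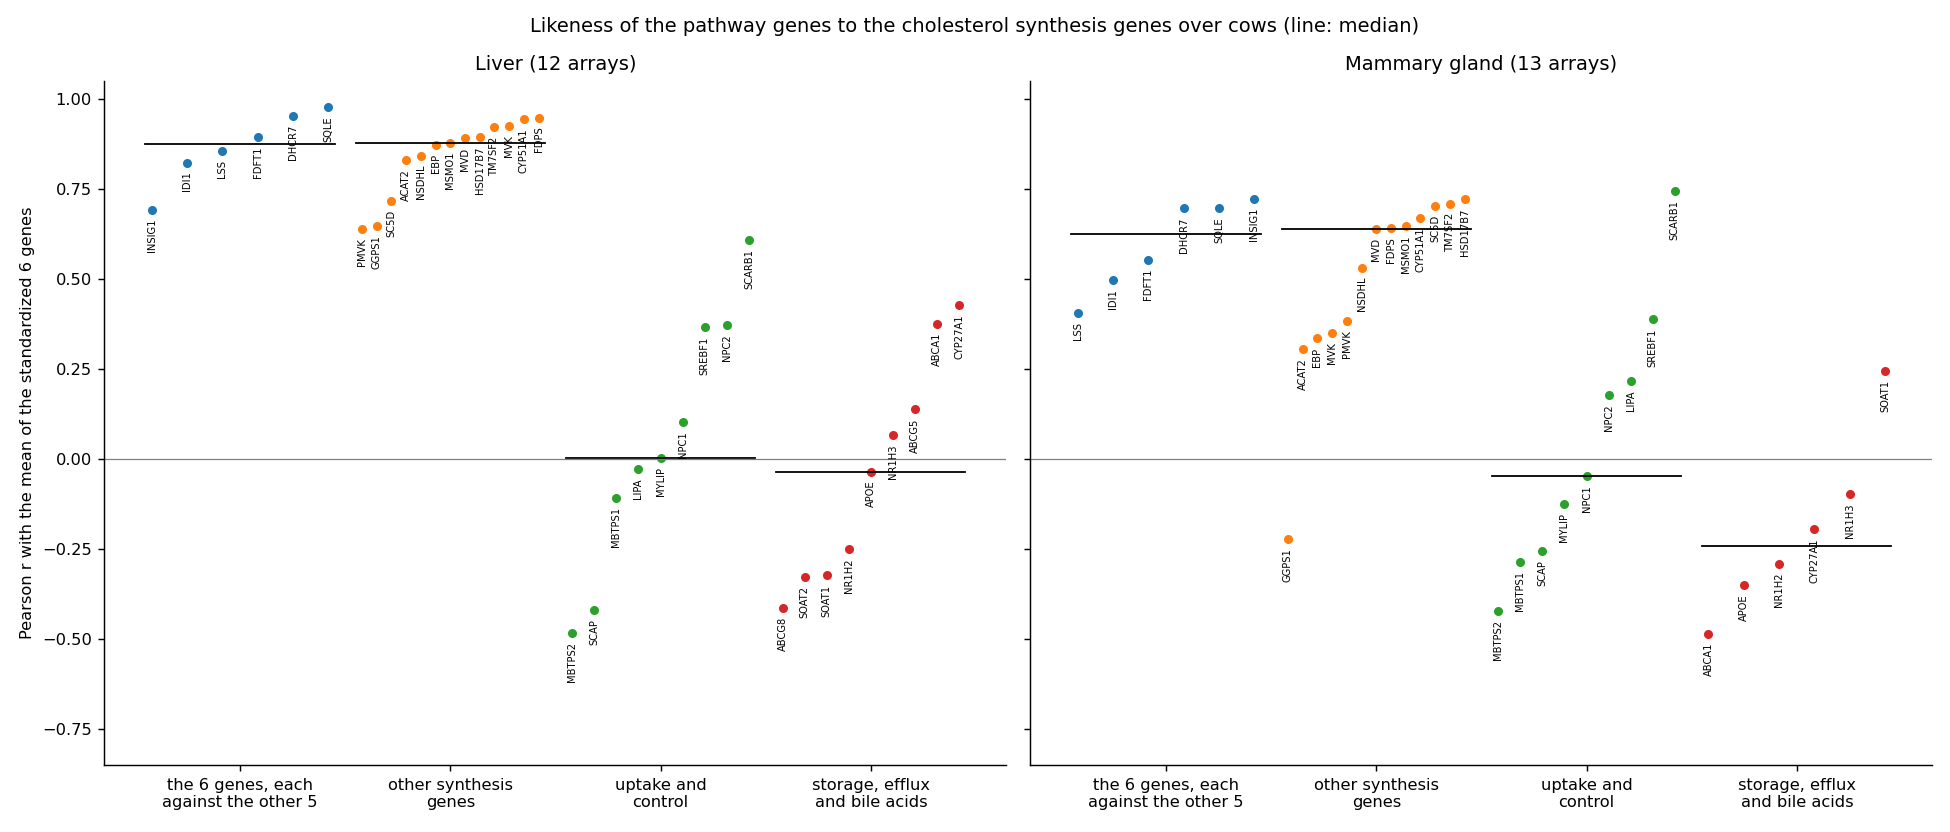
Pearson r of each gene with the mean of the standardised 6 genes (vertical axis) in liver (left, 12 arrays) and mammary gland (right, 13 arrays), by list, with each of the 6 set against the other 5; points are genes and lines are medians. In liver the medians are 0.874 for the 6 genes, 0.878 for the other synthesis enzymes, 0.003 for uptake and control and -0.03 for storage, efflux and bile acids.

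The other synthesis enzymes followed the same side as the 6 genes under treatment in liver, and 0 of 13 were called in any comparison. They were lower than control in 13 of 13 after B9 (median -0.48), 12 of 13 after B12 (median -0.45) and 13 of 13 after B9_B12 (median -0.59), beside shares of lower probes of 46.8%, 49.5% and 46.7%. The enzymes varied together with the 6 genes over the same cows, so these counts are not of independent observations. Without cow 57 the B9 count was 8 of 13 with a median of -0.03, without cow 36 the B12 count was 12 of 13 with a median of -0.20, and without cow 32 the B9_B12 count was 12 of 13 with a median of -0.42. Fitting slides as a fixed block gave a B9 median of -1.19 with 13 of 13 lower. In that fit cow 57 was the only B9 cow whose array shared a slide with other liver arrays, so the value rests on this cow. The largest difference of an enzyme was that of MSMO1, which acts in sterol demethylation, with -1.51 after B9 (adjusted p = 0.891 in limma), and it was -0.26 without cow 57. An unadjusted p below 0.05 was reached by PMVK (-0.72) after B12 and by ACAT2 (-0.73) after B9_B12. On the other lists it was reached by LIPA, the lysosomal lipase, after B9 (-0.41) and by SOAT2, which esterifies cholesterol, after B9_B12 (1.60, the largest difference on the 3 lists, with an adjusted p of 0.664 in limma). Of all probes 3.42%, 1.99% and 5.98% had such a p after B9, B12 and B9_B12. When 1 treated cow was left out, the unadjusted limma p was 0.0523 for PMVK without cow 36 (-0.42) and 0.0717 for LIPA without cow 57 (-0.36). Without cow 32, which left 1 B9_B12 array, the difference was -0.72 for ACAT2 and 1.70 for SOAT2. For any B9 such a p was reached by SOAT2, NPC1 and LIPA, beside 10.1% of all probes. For any B12 it was reached by PMVK, beside 2.95%. The uptake and control genes had medians of 0.09, -0.06 and 0.09 and the storage, efflux and bile acid genes 0.02, -0.08 and -0.002. Some of these small medians moved: without cow 32 the B9_B12 medians were -0.02 and -0.21, and without cow 36 the B12 median of the storage list was 0.04. When slides were fitted as a fixed block the B9 median of the uptake list was -0.13. The B12 median of the uptake list kept its side (-0.04 without cow 36, -0.05 with slides fitted). So did the B9 median of the storage list (0.02 without cow 57, 0.13 with slides fitted). In mammary gland the medians of the 13 enzymes were -0.07, 0.17 and -0.05, with 8, 2 and 10 of 13 lower than control beside 49.4%, 49.5% and 50.4% of all probes, and 0 were called.

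Levels were compared between the tissues after the scanner intensities of all 25 arrays had been normalised together. FDFT1 was the 1 gene of the 6 called different on its brightest probe, and it was higher in liver, with 13.17 ± 0.62 (SD, n = 12) against 11.69 ± 0.33 (SD, n = 13). Its values ran from 11.92 over a median of 13.11 to 14.31 in liver and from 11.18 over 11.64 to 12.52 in mammary gland, so the tissues overlapped only at their ends. The difference was 1.48 (SE 0.209, 95% interval 1.04 to 1.91), or 2.78-fold, with an adjusted p of 3.3e-06 in limma, and liver was higher in 12 of 12 cows, with an exact sign-flip permutation p of 0.000488, the smallest possible. Its other probes differed by 1.95 and 1.68. Of all probes 8.8% were called higher in liver and 9.89% higher in mammary gland, and the median of all probes was -0.03.

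LSS was also higher in liver in 12 of 12 cows, from 6.97 over 7.77 to 8.53 in liver against 6.60 over 6.78 to 6.93 in mammary gland. Its groups did not overlap, and the difference of 0.95 (SE 0.125, adjusted p = 1.24e-06 in limma) was 1.94-fold, just under the 2-fold limit. IDI1 was higher in liver by 0.63 (SE 0.229, adjusted p = 0.0213 in limma), in 9 of 12 cows, with overlapping groups and an exact sign-flip permutation p of 0.0225. Its other probe differed by 1.04, was higher in 11 of 12 cows and was itself called higher in liver. Without the liver array of cow 38 the IDI1 difference was 0.47 with an adjusted p of 0.0958. Past the adjusted p alone there were thus 3 of 6 genes, all higher in liver, where 26.8% of all probes passed in that direction and 36.3% in the other.

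SQLE, DHCR7 and INSIG1 had no difference that passed. SQLE ran from 11.06 over 13.49 to 14.51 in liver and from 13.12 to 14.03 in mammary gland, so that the liver values reached both above and below those of the gland. Its difference was -0.38 (95% interval -0.998 to 0.24), with liver higher in 4 of 12 cows. DHCR7 differed by -0.04 (95% interval -0.57 to 0.49), with liver higher in 8 of 12, and INSIG1 by -0.34 (95% interval -0.97 to 0.28), with liver higher in 7 of 12, and its other probe by 0.03. Their adjusted p were 0.280, 0.906 and 0.337 in limma. The sign of these 3 depended on the scaling: with the 75th percentile of each array in place of quantiles they were 0.36, 0.68 and 0.26, while the median of all probes moved from -0.03 to -0.80. Relative to the median of all probes, each of the 6 genes thus lay higher in liver under that scaling.

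With the cow as a replicate block, which uses the pairing of the tissues, the adjusted p were 4.1e-06 for FDFT1, 1.48e-06 for LSS, 0.0228 for IDI1, 0.287 for SQLE, 0.906 for DHCR7 and 0.340 for INSIG1. The 4 slides that held both tissues, with 1 liver array each, gave FDFT1 differences of 0.62 to 2.48 and LSS differences of 0.31 to 1.70, all higher in liver. IDI1 ran from -0.18 to 1.60 over these slides and SQLE from -1.92 to 0.98. Within scan day 1, with 9 liver and 13 mammary arrays, the differences were 1.37 for FDFT1, 0.97 for LSS and 0.69 for IDI1.

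**Figure D5:**
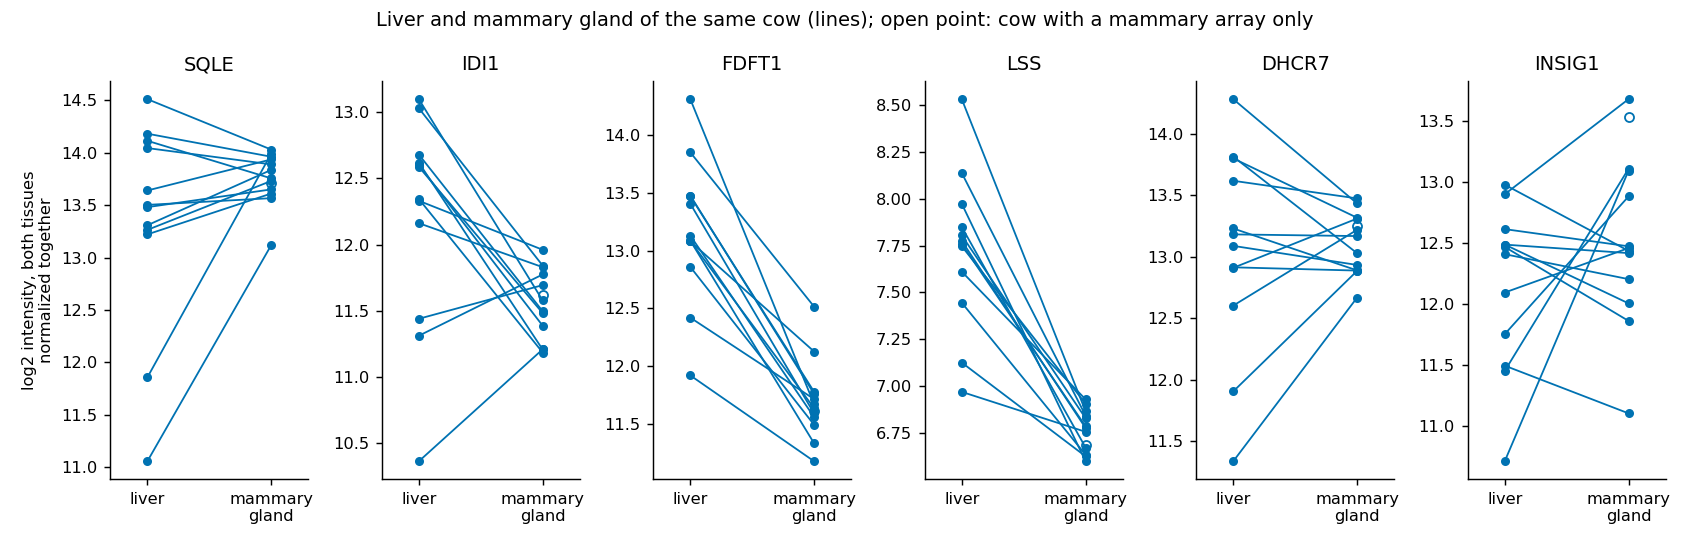
Log2 intensity of the 6 genes in liver and mammary gland after both tissues were normalised together; each line joins the arrays of 1 of the 12 cows, and the open point is the cow with a mammary array only. The lines of FDFT1 and LSS fall from liver to mammary gland in 12 of 12 cows, while those of SQLE fan out from a wide liver range (11.06 to 14.51) into a narrow mammary one (13.12 to 14.03).

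Among the 13 other synthesis enzymes, 6 were called higher in liver and 1 higher in mammary gland, and past the adjusted p alone 8 and 2, with a median difference of 0.91. Of all probes 8.8% were called higher in liver and 9.89% higher in mammary gland, and 26.8% and 36.3% were past the adjusted p alone. The largest were those of ACAT2, the thiolase that joins acetyl-CoA at the head of the route, with 4.52, and TM7SF2, a sterol reductase, with 3.62. They were followed by EBP (1.95), NSDHL (1.87), SC5D (1.83) and PMVK (1.26), whereas HSD17B7 was higher in mammary gland (-1.02). Each of these passed with an adjusted p of 0.000882 or less in limma, and ACAT2 was higher in liver in 12 of 12 cows. Of the 9 genes of uptake and control, 2 were called higher in liver: LIPA (2.45), and SCARB1 (1.73). NPC2, which carries cholesterol out of the lysosome, was called higher in mammary gland (-2.62). Past the adjusted p alone, 3 of the 9 were higher in liver and 4 higher in mammary gland. Of the 9 genes of storage, efflux and bile acids, 7 were called higher in liver and 0 higher in mammary gland. Past the adjusted p alone, 7 were higher in liver and 2 higher in mammary gland, down to -0.85. Among those called were the sterol sensor NR1H3 (4.06), APOE (3.69) and CYP27A1 (3.08), which starts a route to bile acids. ABCG5 and ABCG8, the pair that pumps sterols into bile, were also called higher in liver, and since they were well above background on 1 and 0 of 13 mammary arrays no fold is given for them.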

How the data were processed

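Labelled RNA of 25 biopsies was hybridised to 1-colour Agilent bovine arrays and scanned with Agilent Feature Extraction (10.7.3.1 per the file headers). The authors deposited log2 values that had been background-corrected by normexp and normalised between arrays, per the methods in FlexArray. These log2 values differed from normexp with offset 16 and quantiles within each tissue by a median of 0.00186 (liver) and 0.00096 (mammary gland). The deposited scanner output holds the intensity of each spot, a background intensity and flags, and its annotation names the build HGSC Btau_3.1. No coordinates or sequences are printed, because the reference gene table is of another assembly and no sequence was at hand.

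Array names were paired with current symbols through the RefSeq gene table of the assembly ARS-UCD2.0 (11113 of 27886 names). Outlier spots were left out and spots of a probe averaged, which left 43653 probes. Treatments were compared in limma 3.58.1 (R 4.3.3) on all arrays of a tissue. The study's methods name Cyber-T, which was run as an alternative with a window of 101 probes and a confidence of 10. For the tissues, median spot intensities were corrected by normexp with offset 50, quantile-normalised over all arrays and fitted with 8 groups. A gene is its brightest probe. Correlations used 100000 permutations (scipy 1.17.1). The tests were first tested on simulated data with planted fold changes. The cow pairs the tissues, as both biopsies came from the same animal; the deviations of both tissues from their group means correlated over probes by a median of 0.02 (range -0.29 to 0.27, over 0.1 in 2 of 12 cows). The genes and the lists were chosen with earlier results of these data known. Some genes of the lists are not reported here and were left out of the lists and ranks. Treated members were described in full where their arrays lay on one side of all control arrays, and other pathway genes by counts and by those with the largest change. Alternatives were other background corrections, scalings, filters and blocks, Cyber-T, and leaving out each array in turn.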

Additional observations from a re-analysis of the deposited data

Results flagged for a closer look

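LSS in the liver of the B12 cows had 1 value far from the others: 7.16 in cow 36, against 8.03, 8.05 and 8.17 in cows 37, 40 and 52. The gap to the nearest cow was 0.863 of the range of the group, above the critical value of 0.829 for 4 samples. Each of the 6 genes was looked at in the B12 groups of liver and mammary gland, the groups with 4 arrays. Of these 12 sets of values 1 stood out in this way, and chance does so in about 1 of 20 for a single set. The sets share arrays and the genes varied together, so they are not independent. The same cow was the lowest of the B12 group in liver for each of the 6 genes.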

How the results depend on the processing

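The 13 treatment results, run again 329 times under the alternatives, never had one of the 6 genes called: the lowest adjusted p was 0.129 (IDI1 after B9 with the slide as a fixed block, a difference of -2.91), and 21 runs had a gene at an unadjusted p below 0.05. Cyber-T, with a lowest adjusted p of 0.795 for the 6 genes, called 5, 48 and 20 of all probes in liver for B9, B12 and B9_B12, against 0, 1 and 0 in limma. With the slide as a fixed block, where 1 slide held both B9 and Ctl liver arrays (cows 57 and 42, which differed by a median of -1.58), the B9 median was -1.70. Leaving out each array in turn moved the liver medians between -1.35 and -0.01 (B9), -0.82 and -0.19 (B12) and -0.66 and -0.26 (B9_B12). The B9_B12 liver median was -0.25 and -0.19 under the scalings by the 75th percentile (from normexp and from Agilent's processed signal), where the median of all probes was 0.27 and 0.12.

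Between the tissues 2 genes were called in place of 1 without background correction, with normexp offset 16, from Agilent's processed signal and without the pair of liver arrays that stood apart (FDFT1 and LSS each time), and with normexp and the 75th percentile (FDFT1 and IDI1); leaving out each array gave 1 to 2, with 2 without the liver array of cow 57. FDFT1 was called in each of these. SQLE turned to 0.36 and 0.15 under the scalings by the 75th percentile of normexp and of processed values, DHCR7 to 0.68 and 0.51 and INSIG1 to 0.26 and 0.056, while the median of all probes moved to -0.80 and -0.48. DHCR7 also turned to 0.028 with the slide as a random block and 0.15 without the pair of arrays, and ran from -0.23 to 0.14 when each array was left out. IDI1 then ran from 0.47 to 0.80, SQLE from -0.58 to -0.14 (lowest adjusted p 0.0507 in limma) and INSIG1 from -0.51 to -0.18. The cow as a replicate block changed no call. The count of correlated pairs ran from 9 to 14 in liver and from 0 to 6 in mammary gland when each array was left out. The causes were not tested.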
